A study of Homo sapiens with 38 samples.

Results

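Glycolysis and hypoxia response genes were followed in HCT116, a human colorectal carcinoma cell line, in which Argonaute genes had been knocked out. The list held 40 genes grouped by function: hexose transporters, glycolytic enzymes, lactate and pyruvate handling genes, the hypoxia-inducible factors with their oxygen-sensing regulators, and targets of those factors. Of these, 39 had matched transcripts among the 58425 genes summed here, and INSIG2-AS1 was not analysed here. CA9, a carbonic anhydrase widely used as a hypoxia marker, had at most 10 reads in any library and was too low to measure. The remaining 38 genes were tested in every comparison.

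Glycolysis carries glucose, taken up by membrane transporters, to pyruvate, which is turned into lactate and exported or passed to mitochondria. When oxygen is scarce, the prolyl hydroxylases EGLN1 and EGLN3 stop marking the hypoxia-inducible factor alpha subunits (HIF1A, EPAS1) for destruction, and the stabilized factors activate genes of glucose uptake, glycolysis, pH control, vessel growth and mitophagy. Colorectal cancer cells commonly keep a high glycolytic flux even with oxygen present.

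The study fractionated wild-type cells and 4 knockout lines, namely AGO1 and AGO2 (the single knockouts), and AGO1/2 and AGO1/2/3 (the multiple knockouts), into nuclei and cytoplasm and sequenced ribosomal RNA-depleted total RNA, with 3 libraries for each of the 10 groups. Argonaute proteins are the small RNA-guided core of RNA interference. All cells were HCT116 grown in the same medium with serum and harvested 48 h after seeding, and no hypoxic treatment is named in the labels or methods. The libraries of a group came from different passages: 27, 28 and 29 for wild type, 6, 7 and 8 for AGO1, 8, 9 and 10 for AGO2, 9, 10 and 11 for AGO1/2, and 11, 12 and 14 for AGO1/2/3. Each genotype was 1 edited line, so the knockout cannot be told apart from the clone or its passage, and p-values measure the spread between passages of a line.

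Where 4 values are given for the lines in order, the order is that of the passages above. Reads assigned to a gene were summed over its transcripts and are given as CPM. These are read counts scaled, within a fraction, to library size multiplied by a normalization factor for RNA composition (TMM). In nuclei the factors were 1.11 to 1.13 in wild type, 1.01 to 1.02 in the single knockouts and 0.911 to 0.952 in the multiple knockouts. Nuclear libraries held 20.4 to 26.5 M assigned reads in wild type and 31.3 to 54.1 M in the knockouts, and cytoplasmic libraries 39.5 to 43.3 M and 66.5 to 79.7 M. A gene was called changed at an adjusted p of at most 0.05 in edgeR's quasi-likelihood test, adjusted over all 18919 nuclear or 17605 cytoplasmic genes tested. Of 8 colon epithelial markers, the keratins KRT8 (294 to 1270 TPM, a transcript share corrected for length), KRT18 and KRT19 and the adhesion gene EPCAM (42.1 to 153 TPM) were abundant. CDH1 ranged from 3.23 to 29.8 TPM in nuclei and from 0.681 to 15.9 TPM in cytoplasm. CDX2 ranged from 1.67 to 4.31 TPM in nuclei and from 1.51 to 5.74 TPM in cytoplasm. The differentiation markers KRT20 and VIL1 stayed at or under 0.775 and 0.0773 TPM. Of 6 markers of other cell types, PTPRC, PECAM1 and COL1A2 did not exceed 0.00413, 0.115 and 0.0311 TPM, while COL1A1 reached 6.21, ACTA2 6.88 and the macrophage gene CD68 3.98 TPM. In the edited genes, AGO1 RNA fell in each line labelled as its knockout, by 1.25, 1.90 and 1.70 on the log2 scale in nuclei. AGO2 RNA fell by 0.47 in AGO2 and by 0.44 in AGO1/2/3 nuclei but was not called in AGO1/2 nuclei (−0.18) and was higher in AGO1/2 cytoplasm (0.31), and AGO3 RNA in the AGO1/2/3 line was −0.30 in nuclei and 0.34 in cytoplasm. AGO3 RNA was also lower in AGO1, AGO2 and AGO1/2 nuclei (−0.35, −0.19 and −0.28) and higher in AGO2 and AGO1/2 cytoplasm (0.28 and 0.37). RNA levels do not show whether protein was lost, and the paper examined Argonaute proteins in the 4 knockout lines by western blot. The libraries of wild-type passage 29 stood apart in both fractions, with high NDRG1, VEGFA, SLC2A3, PDK1 and ALDOC and low LDHA. Counts of called genes and some gene results are given with and without them. Counts with a library left out are given without the matching share of all genes.

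In nuclear RNA, most of the 38 genes were higher in the lines labelled as knockouts of both AGO1 and AGO2. Of the 38, 30 rose and 3 fell in AGO1/2 knockout cells, where 32.9% of all genes rose and 34.7% fell. In AGO1/2/3 knockout cells 28 rose and 1 fell, against 29.1% and 29.5% of all genes. The single knockouts moved fewer of them: 14 rose and 8 fell in AGO1 knockout cells (14.3% and 15.6% of all genes), and 19 rose and 2 fell in AGO2 knockout cells (20.2% and 19.9%). The median log2 fold change of the 38 genes was 0.03, 0.32, 0.76 and 0.63 in the lines in order, beside −0.03, −0.02, −0.06 and −0.03 over all genes. All 4 comparisons share the same wild-type libraries. Without wild-type passage 29 the numbers of the 38 genes called were 21, 29, 34 and 33, against 22, 21, 33 and 29 with it. On TPM values (limma on log2(TPM + 1)), 4 rose and 13 fell in AGO1, and 7 rose and 3 fell in AGO2 knockout cells. The multiple knockouts had 26 against 2 and 23 against 3. That scaling moved the median of all genes by −0.193, −0.195, −0.0604 and −0.19 in the lines in order. Of all genes called on it, 6.14%, 10.6%, 45.9% and 27.9% were higher, beside 23.5%, 70%, 92.9% and 88.5% of the called genes of the list.

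Markers of cell type moved in the same libraries. Of the 7 epithelial markers tested, 2, 4, 4 and 3 rose and 2, 0, 2 and 2 fell in nuclei of the lines in order, and 0, 0, 0 and 2 rose and 2, 1, 4 and 3 fell in cytoplasm. In nuclei of the multiple knockouts KRT8 rose by 1.34 and 1.22, KRT18 by 1.19 and 1.0, and KRT19 by 1.38 and 1.37 on the log2 scale. CDH1, the epithelial cadherin, fell there (−2.18 and −1.49) and in cytoplasm (−3.08 and −2.40). EPCAM fell in nuclei (−0.56 and −0.38) and cytoplasm (−1.22 and −1.18) of the same lines. The marker CDX2 rose in AGO1/2 nuclei (0.24) and fell in the cytoplasm of both lines (−0.31 and −0.37). Of the other markers, CD68 rose in both multiple knockouts, by 2.72 and 2.57 in nuclei (from 0.678 to 3.58 and 2.91 TPM) and by 1.93 and 1.61 in cytoplasm, COL1A1 fell in AGO1/2/3 nuclei (−0.26), and ACTA2 rose in AGO1 nuclei and cytoplasm (0.92 and 0.93). The part of these differences in the results for the glycolytic genes was not tested.

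The cytoplasmic RNA showed no such shift. In AGO1/2 knockout cells 9 of the 38 genes rose and 11 fell, near the 23.9% and 25.4% of all genes, and in AGO1/2/3 knockout cells 11 rose and 7 fell against 18.6% and 20%. In AGO1 knockout cells 5 rose and 7 fell (4.28% and 8.13% of all genes), and in AGO2 knockout cells 4 rose and 1 fell (7.07% and 9%). The cytoplasmic medians of the 38 genes were −0.11, 0.02, −0.05 and 0.05. Without wild-type passage 29 the numbers called were 9, 6, 22 and 20, against 12, 5, 20 and 18. The AGO1 number was 7 without AGO1 passage 7, and the AGO2 number was 3 without AGO2 passage 8. On log2(TPM + 1) the splits of higher against lower were 0 and 13, 1 and 9, 5 and 25, and 5 and 14 in the lines in order. That scaling moved the median of all genes by −0.12, −0.18, −0.33 and −0.22. Of all genes called on it, 6.25%, 5.52%, 12.4% and 16.7% were higher, beside 0%, 10%, 16.7% and 26.3% of the called genes of the list.

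**Figure D1:**
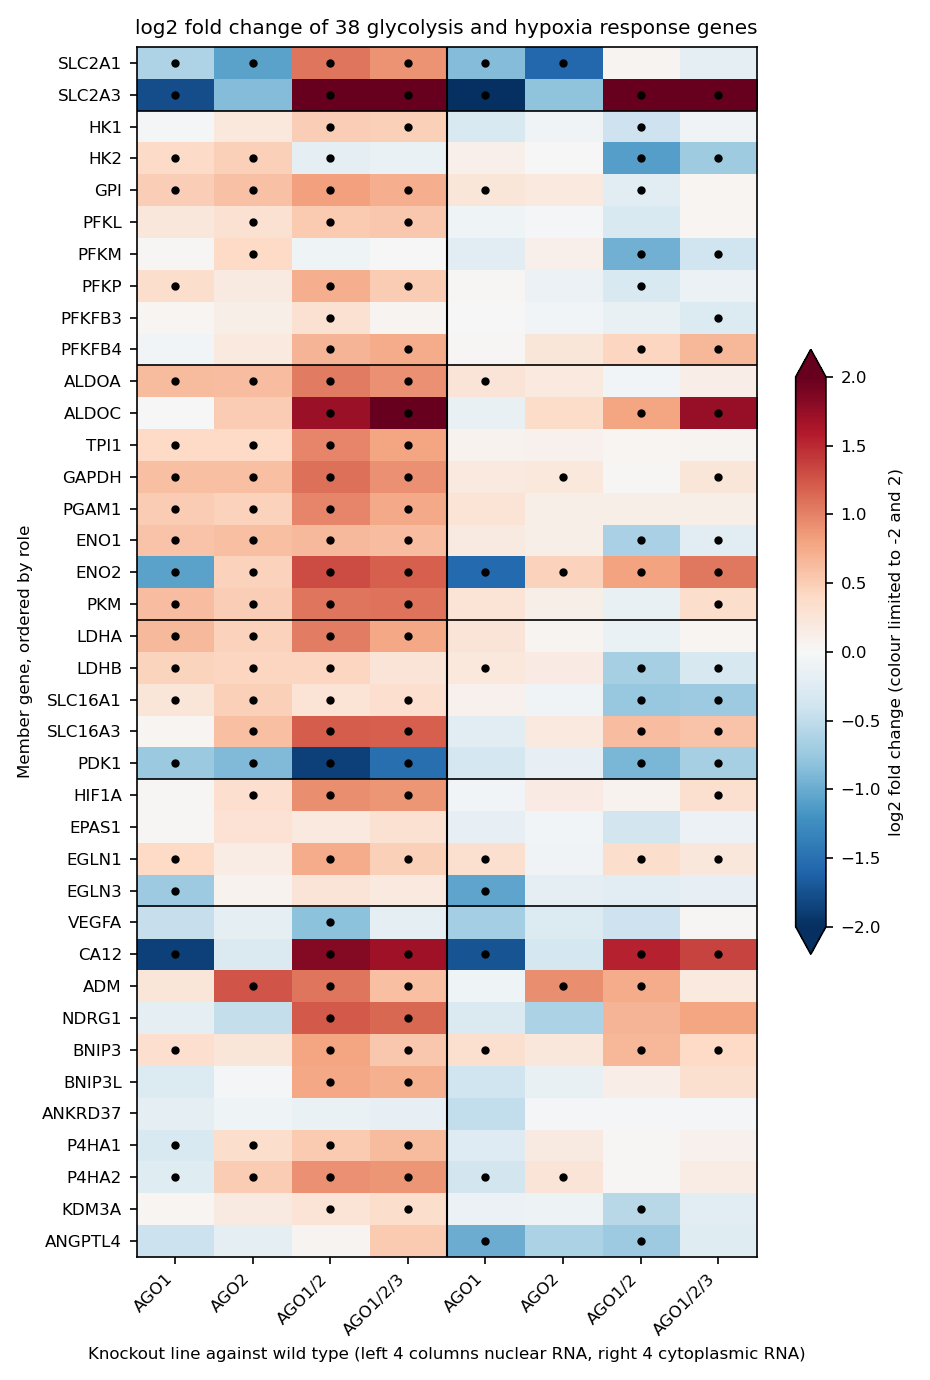
Each cell of the heat map is the log2 fold change of a gene in a knockout line against wild type, with the 38 tested genes on the vertical axis in blocks of role and the lines on the horizontal axis, nuclear RNA left and cytoplasmic RNA right. A dot marks a call at an adjusted p of at most 0.05 and colour is limited to −2 and 2. The AGO1/2 and AGO1/2/3 nuclear columns hold 30 and 28 higher calls, and the matching cytoplasmic columns hold 9 and 11. On TPM values the directions of HIF1A, GAPDH, SLC2A1, SLC16A1, BNIP3, KDM3A, EGLN1 and PFKFB4 turned in at least 1 column.

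In nuclear RNA 9 of the 38 genes, and 6.71% of all genes, were called higher in every knockout line: GPI, ALDOA, TPI1, GAPDH, PGAM1, ENO1, PKM, LDHA and SLC16A1. On TPM values SLC16A1 turned to −0.07 in both AGO1 and AGO1/2/3 knockout cells. PDK1 was the single gene of the list called lower in all 4, as were 6.67% of all genes. Another 7, and 7.48% of all genes, were called in opposite directions in different lines: CA12, ENO2, HK2, P4HA1, P4HA2, SLC2A1 and SLC2A3. ANGPTL4, ANKRD37 and EPAS1, 3 of the 38, were called in no nuclear comparison with wild type, against 20.2% of all genes.

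Among the glucose transporters, SLC2A1, which encodes the broadly expressed transporter GLUT1 (chr1:42925353-42958893, GRCh38, minus strand), fell in the single knockouts and rose in the multiple knockouts. Its nuclear level was 260.1, 216.5 and 298.7 CPM in wild type, 170.1, 158.6 and 176.0 CPM in AGO1, 137, 116.1 and 117.2 CPM in AGO2, 520.5, 626.8 and 487.1 CPM in AGO1/2, and 515.1, 469 and 456.9 CPM in AGO1/2/3 knockout cells. No knockout library overlapped the wild-type range. The nuclear log2 fold changes were −0.62 ± 0.11 (SE, edgeR adjusted p = 9.7e-04), −1.07 ± 0.12 (7.7e-06), 1.08 ± 0.11 (8.0e-07) and 0.89 ± 0.11 (7.6e-06) in that order of lines. Between knockout lines, SLC2A1 was 1.70 ± 0.12 higher on the log2 scale in AGO1/2 than in AGO1 knockout nuclei (edgeR adjusted p = 9.6e-09), a contrast added after seeing the data.

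In the cytoplasm the decrease of SLC2A1 in the single knockouts was present and the increase in the multiple knockouts was not. Wild-type cytoplasm held 300.3, 261.5 and 318.3 CPM, AGO1 knockout cytoplasm 173.2, 152.2 and 156.6 CPM, and AGO2 knockout cytoplasm 113.4, 90.1 and 93.6 CPM, with no overlap. The log2 fold change was −0.87 in AGO1 and −1.57 ± 0.12 in AGO2 knockout cells (edgeR adjusted p = 2.7e-04 and 7.6e-07). AGO1/2 libraries at 286.4, 364 and 268.4 CPM and AGO1/2/3 libraries at 275.1, 241.9 and 259.7 CPM overlapped the wild-type range, with log2 fold changes of 0.06, which became −0.41 on TPM values, and −0.18 (edgeR adjusted p = 0.69 and 0.25).

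SLC2A3, which encodes the high-affinity transporter GLUT3 (chr12:7919230-8019007, GRCh38, minus strand), had the largest change of the 38 genes. It stood at 3.24, 3.05 and 6.16 CPM in wild-type nuclei and at 101, 155 and 55.0 CPM in AGO1/2 knockout nuclei, an increase of 4.66 ± 0.34 on the log2 scale (25.3-fold, edgeR adjusted p = 1.7e-08). AGO1/2/3 knockout nuclei held 58.5, 49.4 and 45.5 CPM, a log2 fold change of 3.64 ± 0.34 (edgeR adjusted p = 2.9e-07). Every library of both lines lay far above every wild-type library. AGO1 knockout nuclei held 1.24, 0.827 and 1.53 CPM, below all wild-type libraries, with a log2 fold change of −1.77 ± 0.47 (edgeR adjusted p = 0.011) that became −1.38 and lost its call without wild-type passage 29. AGO2 knockout nuclei held 2.08, 2.40 and 2.27 CPM and were not called.

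The same order of lines was seen in cytoplasmic SLC2A3, at 2.85, 3.10 and 5.92 CPM in wild type, 63.0, 103 and 41.3 CPM in AGO1/2 and 35.7, 29.6 and 32.1 CPM in AGO1/2/3 knockout cells. These were log2 fold changes of 4.12 ± 0.31 and 3.03 ± 0.30 (edgeR adjusted p = 1.1e-07 and 2.4e-06). AGO1 knockout cytoplasm held 0.958, 0.963 and 1.05 CPM, a log2 fold change of −2.0 ± 0.35 (edgeR adjusted p = 0.0022). Low levels of SLC2A3 are uncertain because its reads can be split with near-identical sequences: the 3 annotated pseudogenes took between 0.089% and 59.4% of the reads of the gene and its pseudogenes in nuclear libraries, with a median of 7.41%.

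**Figure D2:**
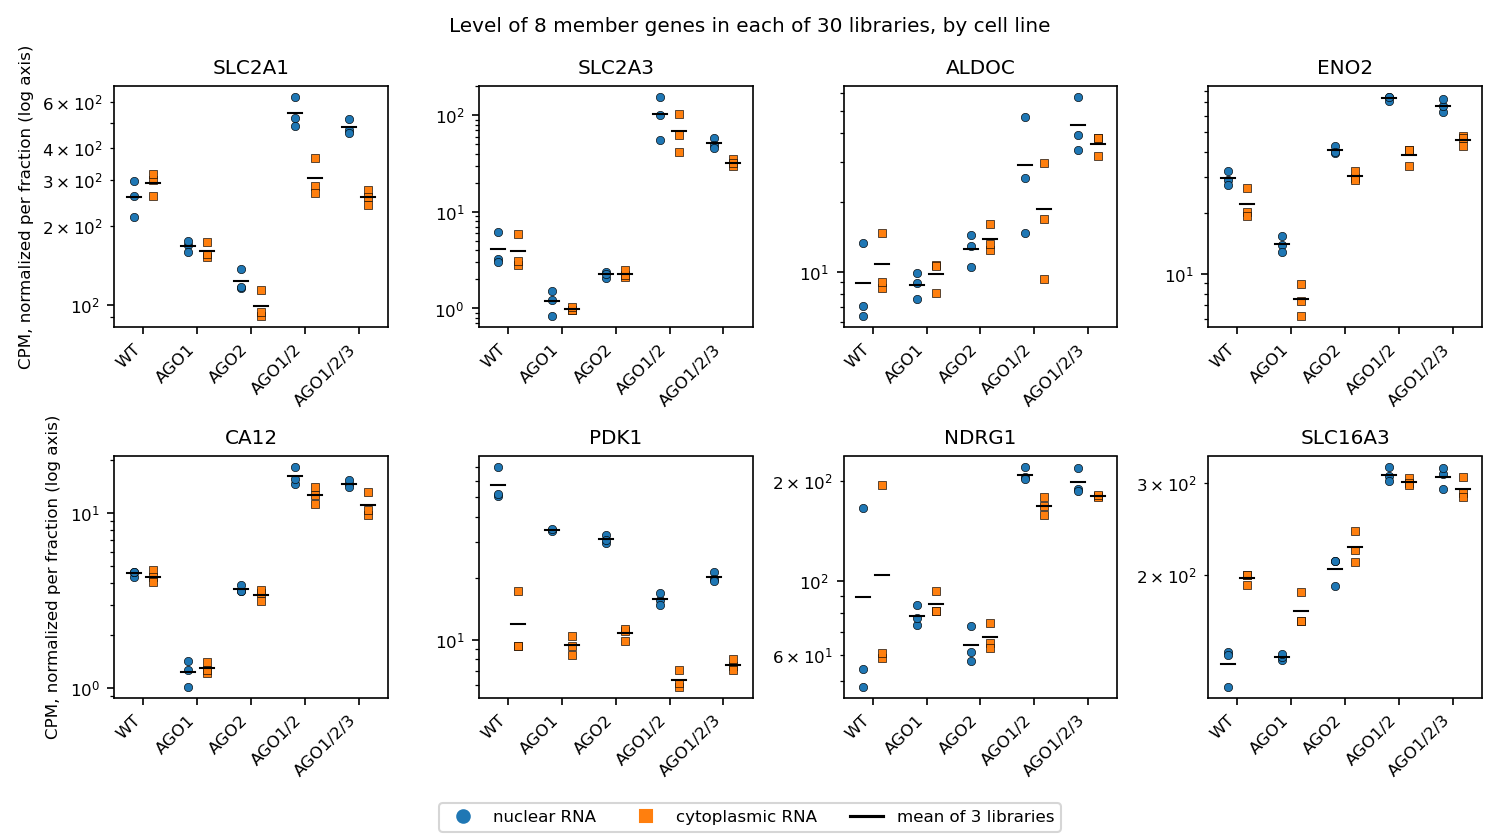
Each point is 1 library and each bar the mean of 3, with the cell line on the horizontal axis and CPM on a log axis that differs between panels, circles for nuclear and squares for cytoplasmic RNA. SLC2A3, ALDOC, ENO2, CA12 and SLC16A3 sit higher in AGO1/2 and AGO1/2/3 knockout nuclei than in wild type, PDK1 sits lower, and for NDRG1 the high wild-type point in each fraction is passage 29.

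Of the 8 enzymes that make and split hexose phosphates, 3, 4, 6 and 5 rose in nuclei of the lines in order, and HK2 fell in AGO1/2. In the cytoplasm 1, 0, 1 and 1 rose and 0, 0, 5 and 3 fell. Among all genes 14.3%, 20.2%, 32.9% and 29.1% rose and 15.6%, 19.9%, 34.7% and 29.5% fell in nuclei. The cytoplasmic shares of all genes were 4.28%, 7.07%, 23.9% and 18.6% higher and 8.13%, 9%, 25.4% and 20% lower. HK2, the inducible hexokinase that traps glucose in the cell, stood at 79.5, 69.1 and 84.0 CPM in wild-type nuclei and rose to between 98.7 and 113 CPM in the single knockouts, above every wild-type library, with log2 fold changes of 0.39 and 0.48 (edgeR adjusted p = 9.5e-04 and 1.1e-04). Its AGO1/2 knockout nuclei overlapped wild type (−0.19, edgeR adjusted p = 0.03), and that call was lost without wild-type passage 27 or 29 (−0.10 without passage 29) or AGO1/2 passage 9 or 11.

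Cytoplasmic HK2 was lower in both multiple knockouts. Wild type held 57.6, 54.5 and 73.0 CPM, AGO1/2 knockout cells 29.5, 28.7 and 28.2 CPM, and AGO1/2/3 knockout cells 38.9, 40.1 and 34.4 CPM, with no overlap. The log2 fold changes were −1.10 ± 0.11 and −0.71 ± 0.10 (edgeR adjusted p = 1.1e-06 and 1.0e-04). PFKM, the muscle-type phosphofructokinase subunit, also fell there, from 92.2 to 106 CPM in wild type to 42.4 to 55.2 CPM in AGO1/2 (log2 fold change −0.97 ± 0.10) and 69.4 to 79.7 CPM in AGO1/2/3 knockout cells (−0.41), without a nuclear change in those lines (−0.09 and −0.00).

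PFKFB4, which sets the level of fructose 2,6-bisphosphate, an activator of phosphofructokinase, rose in both fractions of both multiple knockouts, by 0.68 and 0.74 on the log2 scale in nuclei and by 0.43 and 0.67 in cytoplasm, although the AGO1/2 cytoplasmic value was −0.02 on log2(TPM + 1). GPI, the glucose-6-phosphate isomerase, rose by 0.50 to 0.83 in nuclei of all 4 lines. In AGO1/2 knockout cytoplasm GPI fell by 0.21 (edgeR adjusted p = 0.013), a call lost without AGO1/2 passage 10. HK1, the constitutive hexokinase, and PFKP, the platelet-type phosphofructokinase, rose in AGO1/2 nuclei (0.49 and 0.72) and fell in AGO1/2 cytoplasm (−0.42 and −0.31), where the PFKP call was lost without wild-type passage 29 or AGO1/2 passage 10 or 11.

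Most of the 8 enzymes from aldolase to pyruvate kinase were called higher in nuclear RNA of every line. In nuclei of both multiple knockouts 8 of 8 rose, with median log2 fold changes of 1.05 and 0.91, and 7 rose in AGO2 knockout nuclei. In AGO1 knockout nuclei 6 rose and ENO2 fell. In the cytoplasm 1, 2, 2 and 4 of the 8 rose and 1, 0, 1 and 1 fell in the same order. The shares of all genes are those given for the hexose phosphate enzymes. Wild-type nuclear GAPDH stood at 1263 TPM, ENO1 at 677 TPM and PKM at 488 TPM, the highest of the 38 genes on this length-corrected scale.

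GAPDH, the glyceraldehyde-3-phosphate dehydrogenase often used as a reference gene (chr12:6534512-6538374, GRCh38, plus strand), held 1748, 1701 and 1498 CPM in wild-type nuclei. It held 2514, 2632 and 2373 CPM in AGO1, 2523, 2577 and 2392 CPM in AGO2, 3613, 3631 and 3422 CPM in AGO1/2, and 2723, 3248 and 3320 CPM in AGO1/2/3 knockout nuclei, all above every wild-type library. The log2 fold changes were 0.60 ± 0.08, 0.60, 1.11 ± 0.08 and 0.91 ± 0.08 (edgeR adjusted p = 1.0e-04, 5.3e-05, 1.8e-08 and 2.1e-07). Cytoplasmic GAPDH ranged over 2777 to 2836 CPM in wild type and 2636 to 3419 CPM in the knockouts, with log2 fold changes of 0.20, 0.21, 0.03 and 0.24. The AGO2 and AGO1/2/3 values passed the test (edgeR adjusted p = 0.029 and 0.0072) but were −0.04 and −0.02 on log2(TPM + 1), and the AGO1/2 value was −0.40 there. The AGO2 call was lost without wild-type passage 28 or AGO2 passage 8 or 10.

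ENO1, the main enolase, rose by 0.57 to 0.65 on the log2 scale in nuclei of all 4 lines and fell in AGO1/2 cytoplasm, from 1470, 1392 and 1526 CPM to 975.3, 884.1 and 938 CPM (−0.65 ± 0.07, edgeR adjusted p = 5.6e-06). Its fall in AGO1/2/3 cytoplasm (−0.21, edgeR adjusted p = 0.035) lost its call without wild-type passage 27 or 29 or AGO1/2/3 passage 14. ENO2, the enolase first described in neurons, behaved differently. Its nuclear level was 29.0, 27.5 and 32.2 CPM in wild type, 13.9, 12.9 and 15.4 CPM in AGO1, 39.6, 42.9 and 39.9 CPM in AGO2, 74.0, 71.2 and 74.4 CPM in AGO1/2, and 62.9, 67.0 and 72.5 CPM in AGO1/2/3 knockout cells. No group overlapped wild type, and the log2 fold changes were −1.07 ± 0.08, 0.46, 1.31 ± 0.08 and 1.19 ± 0.08 (edgeR adjusted p = 7.3e-07, 2.8e-04, 1.9e-09 and 7.9e-09).

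Cytoplasmic ENO2 followed its nuclear level, at 20.2, 19.3 and 26.6 CPM in wild type, 6.18, 7.38 and 8.91 CPM in AGO1, 40.9, 34.1 and 40.8 CPM in AGO1/2 and 47.6, 46.9 and 42.7 CPM in AGO1/2/3 knockout cells. These were changes of −1.56 ± 0.14, 0.81 and 1.05 on the log2 scale (edgeR adjusted p = 5.7e-06, 1.5e-04 and 2.2e-05). The AGO2 value of 0.46 was called, and the call was lost without wild-type passage 27 or 28 or AGO2 passage 8 or 10.

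ALDOC, the brain-type aldolase, was variable within groups. It held 6.37, 7.11 and 13.3 CPM in wild-type nuclei, 25.6, 14.7 and 47.0 CPM in AGO1/2 and 33.9, 39.3 and 57.6 CPM in AGO1/2/3 knockout nuclei, all above wild type. The log2 fold changes were 1.72 ± 0.36 and 2.30 ± 0.36 (edgeR adjusted p = 6.1e-04 and 6.4e-05). In cytoplasm, AGO1/2 libraries at 16.9, 9.26 and 29.9 CPM overlapped the wild-type 8.50, 9.05 and 14.8 CPM, and the call (0.80 ± 0.32, edgeR adjusted p = 0.049) was lost without wild-type passage 27 (0.65) or 28 (0.68) or AGO1/2 passage 9 (0.88) or 11 (0.28). AGO1/2/3 cytoplasm at 32.0, 38.2 and 38 CPM did not overlap (1.74 ± 0.32, edgeR adjusted p = 5.6e-04). ALDOA, the main aldolase, rose by 0.61 to 1.03 in nuclei of all 4 lines. In AGO1 knockout cytoplasm it rose by 0.26 (edgeR adjusted p = 0.026), a call lost without wild-type passage 28 or AGO1 passage 6, 7 or 8. TPI1, the triose phosphate isomerase, and PGAM1, the phosphoglycerate mutase, rose by 0.40 to 0.97 and 0.46 to 0.97 in nuclei, and neither was called in cytoplasm.

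PKM, the pyruvate kinase of most proliferating cells (chr15:72199029-72231819, GRCh38, minus strand), held 1271, 1163 and 1224 CPM in wild-type nuclei. It held 1871, 1942 and 1807 CPM in AGO1, 1696, 1741 and 1719 CPM in AGO2, 2446, 2392 and 2819 CPM in AGO1/2 and 2412, 2474 and 2900 CPM in AGO1/2/3 knockout nuclei. All knockout libraries lay above wild type, with log2 fold changes of 0.62 ± 0.08, 0.50, 1.07 and 1.09 ± 0.08 (edgeR adjusted p = 6.7e-05, 1.9e-04, 1.9e-08 and 2.4e-08). In the cytoplasm PKM was called in AGO1/2/3 knockout cells (0.35, edgeR adjusted p = 0.01), where 1674, 1609 and 1455 CPM exceeded the wild-type 1179, 1214 and 1321 CPM.

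PKM transcripts carry one of a pair of mutually exclusive exons, which give the PKM1 and PKM2 forms of the enzyme. The exons are shown because the balance between them was measured apart from the gene's total. The upstream exon lies at chr15:72203022-72203188 and the downstream exon at chr15:72202454-72202620 (GRCh38, minus strand). Both are 167 bases long and 105 of these are identical (62.9%). Capitals mark the 62 positions at which they differ.
upstream exon: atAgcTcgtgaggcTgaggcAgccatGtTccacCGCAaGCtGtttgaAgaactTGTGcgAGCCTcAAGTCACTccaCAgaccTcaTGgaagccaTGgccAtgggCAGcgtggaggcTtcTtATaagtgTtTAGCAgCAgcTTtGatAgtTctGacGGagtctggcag
downstream exon: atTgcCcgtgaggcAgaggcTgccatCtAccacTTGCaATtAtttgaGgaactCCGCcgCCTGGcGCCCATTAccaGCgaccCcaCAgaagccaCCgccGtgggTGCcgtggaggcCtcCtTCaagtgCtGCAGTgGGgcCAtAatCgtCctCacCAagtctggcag

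Among PKM transcripts that hold a single exon of the pair, nearly all by TPM carried the downstream, PKM2-type exon. Other PKM transcripts were left out of this share. The upstream share of the pair was lower in the multiple knockouts. Transcripts with the upstream, PKM1-type exon made up 6.40% ± 0.331 (SD, n = 3) of the pair's TPM in wild-type nuclei, with libraries at 6.11%, 6.33% and 6.76%. The share was 5.66% ± 0.107 in AGO1, 5.68% ± 0.475 in AGO2, 4.49% ± 0.0887 in AGO1/2 and 4.51% ± 0.165 in AGO1/2/3 knockout nuclei, with every knockout library below every wild-type library. The exact two-sided permutation p was 0.1 for each of these lines, the smallest that 3 against 3 libraries can give. By reads in place of TPM the single knockouts overlapped wild type (exact permutation p = 0.2 for AGO1 and 0.5 for AGO2), while the multiple knockouts did not. The AGO2 difference of −0.72 percentage points became −0.46 without AGO2 passage 10. In cytoplasm the share was 4.95% ± 0.103 in wild type, 4.01% ± 0.0397 in AGO1/2 and 3.96% ± 0.169 in AGO1/2/3 knockout cells (exact permutation p = 0.1 for both), and 4.77% ± 0.244 in AGO1 and 4.93% ± 0.145 in AGO2 knockout cells (exact permutation p = 0.4 and 0.9).

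Of the 5 genes that handle lactate and pyruvate, 3, 4, 4 and 3 rose in nuclei of the lines in order, while PDK1 fell in each. In cytoplasm 1, 0, 1 and 1 rose and 0, 0, 3 and 3 fell. The shares of all genes are again those given for the hexose phosphate enzymes. LDHA, the lactate dehydrogenase subunit that favours lactate formation, held 597, 573.7 and 415.6 CPM in wild-type nuclei and between 671 and 1155 CPM in all knockout nuclei, with no overlap. Its nuclear log2 fold changes were 0.65 ± 0.12, 0.46, 1.03 and 0.77 (edgeR adjusted p = 8.3e-04, 0.0055, 1.7e-06 and 4.5e-05). Its cytoplasmic levels, 702.8 to 896.9 CPM in wild type and 716.9 to 1049 CPM in the knockouts, overlapped, and no line was called. LDHB, the subunit abundant in heart, fell in AGO1/2 cytoplasm from 707 to 782 CPM to 435 to 501 CPM (−0.67, edgeR adjusted p = 1.2e-06) and in AGO1/2/3 cytoplasm (−0.32, edgeR adjusted p = 0.0013).

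The monocarboxylate transporters went opposite ways in cytoplasm. SLC16A3, which encodes the lactate exporter MCT4, held 142, 122 and 140 CPM in wild-type nuclei, 212, 212 and 190 CPM in AGO2, 322, 309 and 302 CPM in AGO1/2 and 313, 321 and 292 CPM in AGO1/2/3 knockout nuclei. These 3 lines did not overlap wild type (0.61, 1.21 ± 0.07 and 1.20 ± 0.07, edgeR adjusted p = 1.0e-05, 1.2e-09 and 2.2e-09), while AGO1 knockout nuclei at 137 to 141 CPM did. In cytoplasm it rose from 191, 200 and 200 CPM to between 282 and 309 CPM in both multiple knockouts (0.62 and 0.57). SLC16A1, which encodes MCT1, fell there from 195, 191 and 170 CPM to 105, 119 and 106 CPM in AGO1/2 and 113, 107 and 117 CPM in AGO1/2/3 knockout cells (−0.75 ± 0.07 and −0.72 ± 0.07, edgeR adjusted p = 6.2e-07 and 1.4e-06), again with no overlap.

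PDK1, the kinase that inhibits pyruvate dehydrogenase and so limits pyruvate entry into the citric acid cycle (chr2:172555373-172608669, GRCh38, plus strand), was the exception among these genes. Wild-type nuclei held 50.9, 51.5 and 69.9 CPM, AGO1 knockout nuclei 34.3, 34.0 and 35.0 CPM, AGO2 29.7, 32.7 and 30.6 CPM, AGO1/2 15.6, 14.7 and 16.9 CPM, and AGO1/2/3 21.4, 19.8 and 19.3 CPM. All knockout libraries lay below wild type, with log2 fold changes of −0.74, −0.89, −1.86 ± 0.10 and −1.51 ± 0.10 (edgeR adjusted p = 1.2e-04, 1.3e-05, 1.1e-09 and 1.3e-08). Cytoplasmic PDK1 fell from 9.28, 9.27 and 17.3 CPM to 5.85, 6.15 and 7.09 CPM in AGO1/2 and 7.40, 7.10 and 8.01 CPM in AGO1/2/3 knockout cells (−0.91 ± 0.19 and −0.67 ± 0.19, edgeR adjusted p = 0.0012 and 0.011), and was not called in the single knockouts (−0.35 and −0.16).

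Among the factors and their regulators, HIF1A rose in the multiple knockouts and EPAS1, which encodes HIF-2 alpha, was not called in either fraction of any line. HIF1A (chr14:61695513-61748259, GRCh38, plus strand) held 180, 170 and 183 CPM in wild-type nuclei and 181, 183 and 176 CPM in AGO1 knockout nuclei, which overlapped. AGO2 knockout nuclei held 231, 230 and 212 CPM, AGO1/2 330, 336 and 346 CPM and AGO1/2/3 304, 328 and 349 CPM, all above wild type. The log2 fold changes were 0.02 in AGO1, which became −0.24 on TPM values, and 0.34, 0.93 ± 0.06 and 0.88 ± 0.06 (edgeR adjusted p = 4.4e-04, 4.5e-09 and 1.2e-08). In cytoplasm HIF1A stood at 178, 184 and 190 CPM in wild type and was called in AGO1/2/3 knockout cells alone, at 232, 246 and 211 CPM (0.32, edgeR adjusted p = 0.0027). In AGO1/2 cytoplasm it was 0.08 by counts and −0.36 on log2(TPM + 1).

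EPAS1 held 36.4, 30.9 and 47.9 CPM in wild-type nuclei and between 36.3 and 52.4 CPM in the knockouts, within or near the wild-type range. EGLN1, the main oxygen-sensing prolyl hydroxylase, rose in 3 lines, by 0.40 in AGO1, 0.74 in AGO1/2 and 0.48 in AGO1/2/3 nuclei and by 0.32, 0.34 and 0.22 in their cytoplasm, but on TPM values its cytoplasmic changes in AGO1/2 and AGO1/2/3 were −0.09 and −0.01. The AGO1/2/3 cytoplasmic call was lost without wild-type passage 29 or AGO1/2/3 passage 12. EGLN3, a hydroxylase that is itself a target of the factors, fell in AGO1 knockout cells, by 0.73 in nuclei and by 1.06 ± 0.11 in cytoplasm (edgeR adjusted p = 8.9e-04 and 1.7e-05). Protein levels and the oxygen state of the cells were not measured here, and in bulk RNA fewer expressing cells and less RNA per cell cannot be told apart.

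Of the 11 measured targets of the factors, 1, 3, 8 and 8 rose and 3, 0, 1 and 0 fell in nuclei of the lines in order, and in cytoplasm 1, 2, 3 and 2 rose and 3, 0, 2 and 0 fell. Among all genes 14.3%, 20.2%, 32.9% and 29.1% rose and 15.6%, 19.9%, 34.7% and 29.5% fell in nuclei. In cytoplasm 4.28%, 7.07%, 23.9% and 18.6% of all genes rose and 8.13%, 9%, 25.4% and 20% fell. CA12, a membrane carbonic anhydrase that regulates extracellular pH, held 4.33, 4.60 and 4.63 CPM in wild-type nuclei, 1.27, 1.02 and 1.44 CPM in AGO1, 14.7, 15.6 and 18.1 CPM in AGO1/2 and 14.6, 14.0 and 15.4 CPM in AGO1/2/3 knockout nuclei. The groups did not overlap (−1.86 ± 0.13, 1.84 ± 0.10 and 1.70 ± 0.10, edgeR adjusted p = 4.4e-07, 1.4e-09 and 4.9e-09). AGO2 knockout nuclei at 3.58 to 3.86 CPM were not called. Cytoplasmic CA12 repeated the order, from 4.01 to 4.7 CPM in wild type to 1.23 to 1.41 CPM in AGO1, 11.2 to 14.0 CPM in AGO1/2 and 9.75 to 13.2 CPM in AGO1/2/3 knockout cells (−1.73 ± 0.14, 1.54 and 1.36).

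ADM, which encodes the vasodilator peptide adrenomedullin, rose in the AGO2 knockout as well. It held 21.2, 20.9 and 17.7 CPM in wild-type nuclei, 53.8, 46.6 and 42.4 CPM in AGO2, 44.7, 51.2 and 30.2 CPM in AGO1/2 and 29.1, 33.5 and 28.0 CPM in AGO1/2/3 knockout nuclei, with no overlap (1.26 ± 0.15, 1.07 and 0.60, edgeR adjusted p = 2.3e-05, 1.7e-05 and 0.0036). In cytoplasm it rose in AGO2 and AGO1/2 knockout cells (0.93 and 0.74, edgeR adjusted p = 0.0014 and 0.0017), with 29.3, 29.3 and 25.6 CPM and 26.9, 29.4 and 17.6 CPM against 15.0, 15.9 and 13.3 CPM in wild type.

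NDRG1, a stress-induced gene, depended on wild-type passage 29. Its wild-type nuclei held 48.0, 54.1 and 166 CPM, its AGO1/2 knockout nuclei 205, 202 and 219 CPM and its AGO1/2/3 knockout nuclei 190, 186 and 219 CPM. The log2 fold changes were 1.23 ± 0.32 and 1.15 ± 0.32 (edgeR adjusted p = 0.0031 and 0.0058), and 2.06 and 1.98 without passage 29. In the cytoplasm the values 0.68 and 0.78 did not pass the test (edgeR adjusted p = 0.094 and 0.069) and became 1.5 and 1.6, both called, without that passage. VEGFA, the vessel growth factor, held 61.1, 59.7 and 138 CPM in wild-type nuclei and 48.7, 40.7 and 56.0 CPM in AGO1/2 knockout nuclei. Its fall (−0.83 ± 0.25, edgeR adjusted p = 0.0086) was −0.29 and not called without passage 29.

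The mitophagy receptors BNIP3 and BNIP3L rose in nuclei of both multiple knockouts (0.79 and 0.54, 0.77 and 0.71), and BNIP3 also in their cytoplasm (0.67 and 0.39). In AGO1 knockout cells BNIP3 was called higher at 0.34 in nuclei, which was −0.01 on log2(TPM + 1), and at 0.32 in cytoplasm, and these calls were lost without wild-type passage 27 or AGO1 passage 6 in nuclei, and without wild-type passage 27, 28 or 29 or AGO1 passage 6 or 7 in cytoplasm. Pseudogenes took 2.75% to 11.2% of the reads of BNIP3 and its pseudogenes in nuclear libraries. The collagen prolyl hydroxylases P4HA1 and P4HA2 rose in nuclei of the AGO2 knockout (0.35 and 0.51) and of the multiple knockouts (0.52 and 0.64 for P4HA1, 0.91 and 0.88 for P4HA2). Both fell in AGO1 knockout nuclei (−0.30 and −0.24), where the calls were lost without wild-type passage 29 or AGO1 passage 6 or 7.

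The histone demethylase KDM3A rose weakly in the nuclei of both multiple knockouts (0.27 and 0.35), but was −0.04 and −0.09 on log2(TPM + 1), and the AGO1/2 call was lost without wild-type passage 28 or AGO1/2 passage 11. In AGO1/2 cytoplasm KDM3A fell by 0.56 (edgeR adjusted p = 0.0015). ANGPTL4, a lipase inhibitor, fell in the cytoplasm of AGO1 and AGO1/2 knockout cells (−0.99 and −0.73, edgeR adjusted p = 0.035 and 0.044). Without wild-type passage 29 these were −0.50 and −0.24, and the calls were also lost without AGO1 passage 6, 7 or 8 and without AGO1/2 passage 9 or 10. ANKRD37 was called in no line.

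In all, 9 of the 38 genes were called in the same direction in both fractions of both multiple knockouts, 8 higher and 1 lower, against 12.9% and 10.2% of the 16723 genes tested in both fractions. These were SLC2A3, PFKFB4, ALDOC, ENO2, SLC16A3, EGLN1, CA12 and BNIP3 higher and PDK1 lower. On TPM values EGLN1 and PFKFB4 turned to −0.09 and −0.02 in AGO1/2 cytoplasm, and EGLN1 to −0.01 in AGO1/2/3 cytoplasm. The AGO1/2 cytoplasmic libraries of ALDOC overlapped wild type. The promoters of these genes are shown because the calls of each gene had the same direction in these comparisons. Hypoxia-inducible factors recognize the core letters ACGTG or GCGTG, and both were searched on both strands in the 250 bases before each start site of the RefSeq promoter table (GRCh38.p14), so that CACGTG counts on both strands. The stretches below are written 5′ to 3′ on the gene's strand, with each match in capitals (CACGT and CACGC being matches on the other strand). SLC2A3 is not among the 34 listed genes matched in that table. Stretches from 1 start site are given for SLC16A3.
PFKFB4, chr3:48556945-48556989, minus strand: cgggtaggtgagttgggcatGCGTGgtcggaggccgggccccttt
ALDOC, chr17:28576899-28577145, minus strand: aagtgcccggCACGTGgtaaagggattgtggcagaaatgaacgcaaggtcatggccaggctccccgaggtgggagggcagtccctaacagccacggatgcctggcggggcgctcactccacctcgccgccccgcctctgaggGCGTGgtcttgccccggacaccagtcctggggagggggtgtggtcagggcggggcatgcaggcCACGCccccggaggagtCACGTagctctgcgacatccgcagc
ENO2, chr12:6914442-6914486, plus strand: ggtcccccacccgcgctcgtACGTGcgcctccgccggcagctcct
SLC16A3, chr17:82228954-82229011, plus strand: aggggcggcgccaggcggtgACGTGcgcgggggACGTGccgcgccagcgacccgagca
PDK1, chr2:172556053-172556089, plus strand: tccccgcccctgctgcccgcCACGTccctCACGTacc
EGLN1, chr1:231422288-231422320, minus strand: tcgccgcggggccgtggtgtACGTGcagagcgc
CA12, chr15:63382056-63382096, minus strand: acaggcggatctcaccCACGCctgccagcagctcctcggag
BNIP3, chr10:131982003-131982086, minus strand: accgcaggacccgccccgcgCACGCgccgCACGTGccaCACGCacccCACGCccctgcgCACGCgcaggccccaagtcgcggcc

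At least 1 of these core motifs was present before a start site of 28 of the 34 matched genes (82.4%), compared with 47.4% of the 27305 genes in the table. ACGTG alone was present in 55.9% against 21.7%, and GCGTG in 50% against 36.2%. The listed genes were chosen as glycolysis genes and targets of these factors, a gene with several start sites has more chances of a match, and a match is not evidence of binding. PDK1, which fell, carried 2 matches, like SLC16A3 at the start site shown, which rose.

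The AGO1/2/3 and AGO1/2 lines differed little in nuclear RNA. Of the 38 genes, EGLN1 was called between them (0 higher and 1 lower, with 1.74% of all genes higher and 1.74% lower), at −0.26 ± 0.06 (edgeR adjusted p = 0.0349). At an unadjusted p under 0.05 there were 12, but the share of all genes at that threshold was not examined, so this count has no background. The EGLN1 call was lost without AGO1/2 passage 9 or 10 or AGO1/2/3 passage 11, 12 or 14, and 9 genes were called without AGO1/2 passage 11. In cytoplasm 6 were higher and 1 lower in AGO1/2/3 than in AGO1/2 knockout cells, where 2.47% of all genes were higher and 2.48% lower. ENO1 (0.44), PFKM (0.56), PKM (0.50), HK2 (0.39), LDHB (0.35) and GPI (0.25) were higher, with edgeR adjusted p between 0.0175 and 0.0473, and SLC2A3 was lower (−1.09, edgeR adjusted p = 0.0353). All 7 calls were lost when AGO1/2 passage 9 or 10 or AGO1/2/3 passage 11 or 12 was left out, and 15 were called without AGO1/2 passage 11.

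In wild-type cells the transcripts of these genes lay more in the cytoplasm than in the nucleus, relative to all other RNAs. In a fit of all 30 libraries, 23 of 38 were called lower and 3 higher in nuclear than in cytoplasmic RNA, where 37.3% of 20104 genes were lower and 39.6% higher, with a median log2 difference of −0.52 against 0.04 over all genes. CPM in this fit are scaled over all 30 libraries and so differ from those scaled within a fraction. The lowest were TPI1 at −1.42 ± 0.07 (253 ± 11.3 CPM in nuclei and 679 ± 61.9 CPM in cytoplasm, SD, n = 3), PGAM1 at −1.37, BNIP3L at −1.28, BNIP3 at −1.20 and GAPDH at −1.20. PDK1 was 1.83 ± 0.15 higher in nuclei (49.4 ± 7.97 against 13.9 ± 5.24 CPM, edgeR adjusted p = 5.5e-11). VEGFA was 0.91 and KDM3A 0.24 higher in nuclei (edgeR adjusted p = 0.0044 and 0.0488). The VEGFA call was lost without nuclear wild-type passage 29 (0.44), and the KDM3A call without nuclear passage 27 or 29 or cytoplasmic passage 27 or 28. On log2(TPM + 1), which moved the median of all genes by 0.34, the split was 12 higher and 11 lower. Of all genes called on that scale 69.1% were higher, beside 52.2% of the called genes of the list.

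The median nuclear against cytoplasmic difference of the 38 genes was −0.31 in AGO1, −0.29 in AGO2, 0.08 in AGO1/2 and −0.10 in AGO1/2/3 knockout cells. Whether the change in AGO1/2/3 knockout cells depended on the fraction was tested directly, as an interaction term. For 19 of 38 genes the nuclear change was called more positive than the cytoplasmic change and for 1 more negative, against 11.7% and 11.1% of all genes, and the median difference was 0.48. With the replicate number as a block, 31 of 38 were called. SLC2A1 (0.996 ± 0.17, edgeR adjusted p = 1.2e-04), SLC16A1 (0.97, edgeR adjusted p = 5.0e-07), ENO1 (0.74) and ALDOA (0.70) had the most positive differences. PDK1 had the negative one (−0.92, edgeR adjusted p = 0.0030), with 16.7 ± 1.02 CPM in nuclei and 8.86 ± 0.579 CPM in cytoplasm of AGO1/2/3 knockout cells on the scale of that fit. The number called was 23 without nuclear and 19 without cytoplasmic wild-type passage 29.

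**Figure D3:**
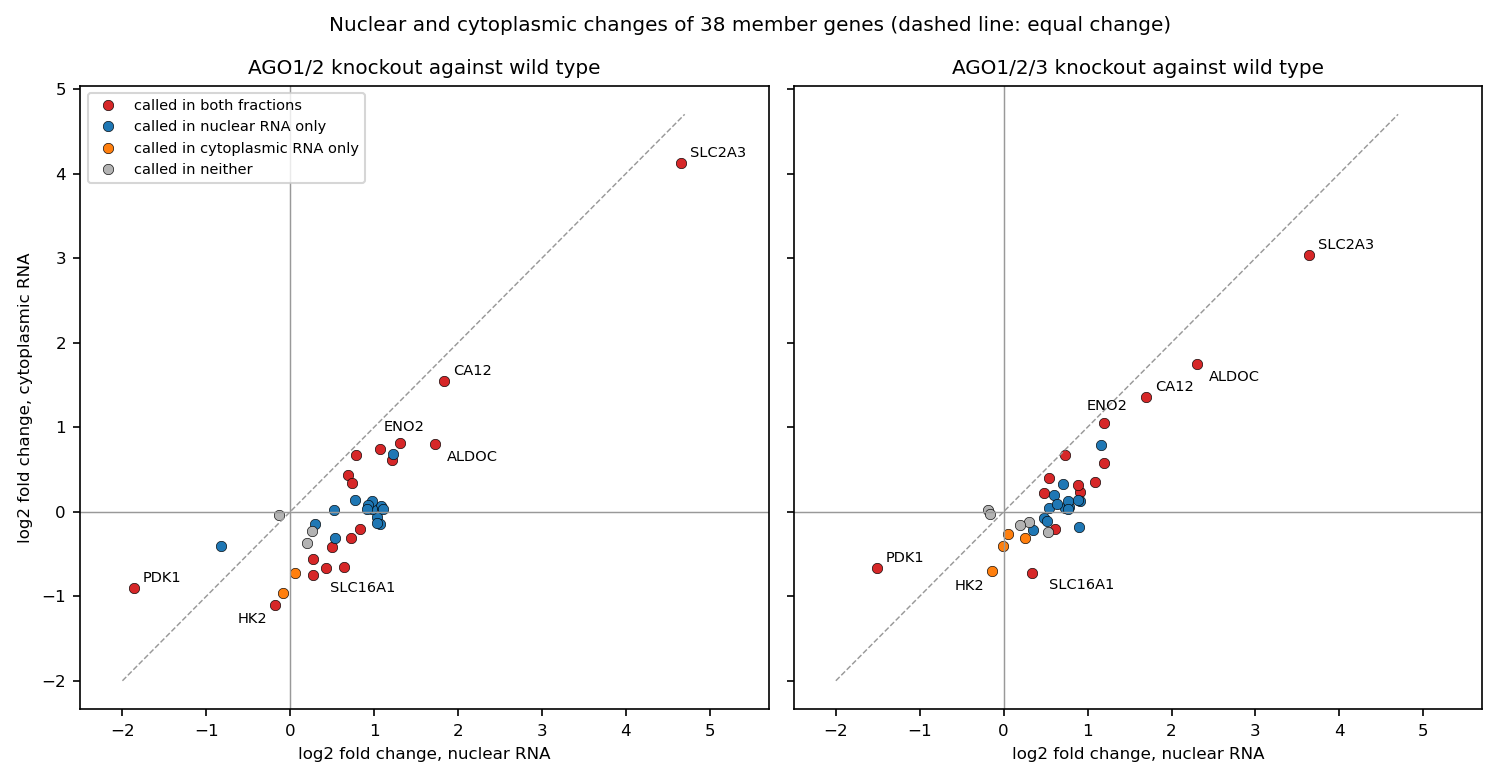
Each point is 1 of the 38 tested genes, with its log2 fold change against wild type in nuclear RNA on the horizontal axis and in cytoplasmic RNA on the vertical axis, for the AGO1/2 (left) and AGO1/2/3 (right) lines. Most points lie right of 0 and below the dashed line of equal change, SLC2A3 lies at 4.66 and 4.12 on the left and at 3.64 and 3.03 on the right, and PDK1 lies left of 0.

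Other RNAs also moved between lines in the nuclear fraction. The nuclear-retained RNAs MALAT1, NEAT1, TUG1 and KCNQ1OT1 were lower in both multiple knockouts, 4 of 4 in each, with median log2 fold changes of −0.90 and −0.57. Of these, 1 rose and 2 fell in AGO1 and 0 rose and 1 fell in AGO2 knockout nuclei. In cytoplasm 2, 2, 1 and 0 of the 4 rose and 0, 1, 0 and 1 fell in the lines in order. Their median nuclear against cytoplasmic log2 difference was 3.86 in wild type and 2.94, 2.89, 2.37 and 2.69 in the lines. Of 79 ribosomal protein genes, a cytoplasmic-rich set added after seeing the data, 75, 48, 66 and 56 rose and 0, 1, 6 and 7 fell in nuclei of the lines in order, with medians of 0.41, 0.21, 0.40 and 0.29. In the interaction term of AGO1/2/3, 0 of the 4 nuclear-retained RNAs were called more positive in nuclei and 3 more negative. The epithelial markers had 4 and 0 of 7, with a median of 0.72. The ribosomal protein genes had 19 and 3 of 79, with a median of 0.14. The shares of all genes were 11.7% and 11.1%. Nuclear libraries of the knockouts were also deeper than those of wild type. The part of fraction purity or depth in the nuclear increases of the glycolytic genes was not tested.

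The share of a gene's TPM that came from transcripts annotated as retaining an intron was examined in the 33 of these genes that had such a transcript and at least 1 TPM in nuclei, a measure chosen after seeing the data. Its median over the 33 genes was 12.3% in wild type, 11.5% in AGO1, 9.55% in AGO2, 3.94% in AGO1/2 and 6.61% in AGO1/2/3 knockout nuclei. Over all 7057 such genes it was 22.2%, 19.9%, 17.8%, 12.3% and 14.4%. Every knockout library lay below every wild-type library for 6, 11, 22 and 19 of the 33 genes, and for 22.9%, 36.7%, 65.8% and 57.2% of all such genes, so the counts of the 33 were near the background.

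PKM had a retained-intron share of 15.5% in wild-type nuclei and of 11.5%, 9.63%, 6.12% and 7.45% in nuclei of the lines in order, below wild type in every library. LDHA went from 8.25% to 2.60% and 3.47% and HIF1A from 4.58% to 1.64% and 1.54% in AGO1/2 and AGO1/2/3 nuclei. ALDOA went the other way, from 21.6% to 26.1% and 25.8%. In cytoplasm the median share of the 33 genes was between 0.620% and 0.957% in all groups.

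**Figure D4:**
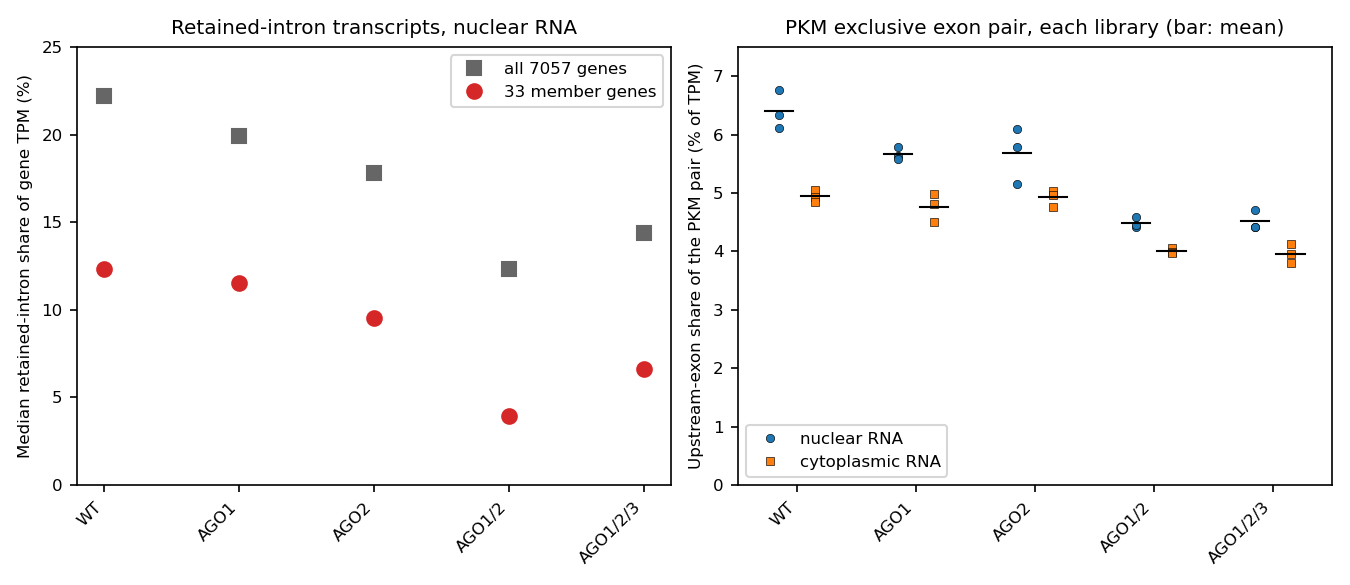
The left panel gives, for each cell line on the horizontal axis, the median percent of a gene's nuclear TPM from retained-intron transcripts, for 33 of the listed genes (circles) and all 7057 genes with such transcripts (squares). The right panel gives the percent of the PKM exon pair's TPM with the upstream exon in each library (circles nuclear, squares cytoplasmic, bars means). Both medians are lowest in AGO1/2 knockout nuclei, at 3.94% and 12.3%, and the upstream-exon share falls from 6.40% in wild-type nuclei to 4.49% and 4.51% in the multiple knockouts.

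Further genes of the same pathways, taken from textbook knowledge with earlier results of these data known, moved in both directions. Of 19 measured glycolysis and pyruvate genes outside the list, 4, 4, 8 and 8 rose and 2, 2, 4 and 3 fell in nuclei of the lines in order, and 1, 1, 3 and 2 rose and 2, 1, 7 and 5 fell in cytoplasm. Of 38 further hypoxia-related genes, 3, 11, 21 and 19 rose and 8, 6, 9 and 8 fell in nuclei, and 2, 4, 12 and 12 rose and 5, 3, 4 and 4 fell in cytoplasm. Of all genes, 14.3%, 20.2%, 32.9% and 29.1% rose and 15.6%, 19.9%, 34.7% and 29.5% fell in nuclei of the lines in order. The cytoplasmic shares were 4.28%, 7.07%, 23.9% and 18.6% higher and 8.13%, 9%, 25.4% and 20% lower. PDK4, another pyruvate dehydrogenase kinase, fell like PDK1 in AGO1/2/3 knockout cells, by 1.77 in nuclei and by 2.47 in cytoplasm on the log2 scale (edgeR adjusted p = 1.6e-05 and 1.1e-06). The phosphoglucomutase PGM2 fell as well (−0.37 in nuclei and −0.76 in cytoplasm). Among the hypoxia-related genes, the growth factor PDGFB rose (1.88 and 1.05), as did the sugar transporter SLC2A12 (1.5 and 1.02).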

How the data were processed

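Nuclear and cytoplasmic total RNA of 30 libraries was analysed; the AGO2 binding data of the series were not analysed here. Per the labels and methods, the authors sequenced stranded, ribosomal RNA-depleted libraries as paired ends, aligned them with STAR to hg38 and quantified transcripts with Salmon (STAR 2.5.3a and Salmon 0.11.0 in the submitters' processing notes; the methods give other versions). The deposited values were estimated counts per transcript (expected counts, not whole) and TPM, which the authors' quantification scales to transcript length and library total. Of 200401 transcripts, 195887 were matched to GENCODE 44 genes and 4514 were not, with 2.23% to 4.01% of reads.

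Estimated counts were summed per gene, rounded, filtered with filterByExpr (minimum count 10), normalized by TMM and tested with edgeR 4.0.16 (quasi-likelihood, 15 libraries of a fraction in 1 fit, Benjamini-Hochberg over all genes). Standard errors are the absolute log2 fold change divided by the square root of F. Fractions were compared in 1 fit of 30 libraries with 10 group means. Alternatives were DESeq2 1.42.0, RLE size factors, other filters (none, or a mean of 50 reads), counts from length-scaled TPM, limma 3.58.1 on log2(TPM + 1) and log2(TPM + 0.1) with genes of at least 0.5 TPM, fits of 2 groups, each library left out, and the culture as a replicate block. The PKM exon share was compared by an exact two-sided permutation test. On simulated counts of 18919 genes for a knockout against wild type, 66 of 100 changes of log2 size 1 and 88 of 100 of size 2 were recovered. There were 5 false calls. The simulation changed 200 genes, whereas 11083 were called in AGO1/2/3 nuclei, so it does not show recovery where so many genes change.

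The listed genes and all other gene lists were chosen with earlier results of these data known. Genes given by library were the 12 with the largest absolute log2 fold change over 8 knockout comparisons among those called and not overlapping wild type, plus HIF1A, EPAS1, SLC2A1, LDHA, GAPDH and PKM; levels shown for other genes were chosen after their values were seen. Genes outside the list were named by the largest changes, and not all of those are reported here. Under an alternative, a value that passed the test in neither setting was given no direction. Wild-type nuclear and cytoplasmic libraries of a passage deviated together (correlation 0.156, 0.148 and 0.402 over genes) but those of AGO1/2/3 did not (−0.0236, 0.0377 and 0.0351), so the block was kept as an alternative. Counts limit precision, and depth differed between wild type and knockouts.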

Additional observations from a re-analysis of the deposited data

Results flagged for a closer look

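The effect of the AGO1/2/3 knockout differed between nuclear and cytoplasmic RNA for 20 genes by edgeR's interaction test. The nuclear minus cytoplasmic difference in log2 fold change among transporters and exporters was 0.996 for SLC2A1, 0.97 for SLC16A1 and 0.55 for SLC16A3. Among the hexose phosphate enzymes it was 0.47 for HK1, 0.49 for HK2, 0.60 for GPI and 0.55 for PFKP. In lower glycolysis it was 0.70 for ALDOA, 0.64 for TPI1, 0.59 for GAPDH, 0.56 for PGAM1, 0.74 for ENO1 and 0.66 for PKM, and for the lactate dehydrogenase subunits 0.65 (LDHA) and 0.49 (LDHB). It was 0.48 for HIF1A, 0.47 for P4HA1, 0.66 for P4HA2 and 0.49 for KDM3A, and −0.92 for PDK1. The calls of KDM3A (0.36 to 0.43) and HK1 (0.33 to 0.44) were lost without nuclear wild-type passage 28, cytoplasmic wild-type passage 29 or passage 14 of AGO1/2/3 in either fraction, and that of LDHB (0.43 and 0.42) without nuclear AGO1/2/3 passage 12 or 14. The wild-type libraries were shallower than the knockout libraries in both fractions, and the part of depth or fraction purity in these differences was not tested.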

How the results depend on the processing

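The 8 counts of called genes against wild type, the nuclear against cytoplasmic count and the interaction stayed within 1.5 times their reported value under the alternatives, except as follows. The nuclear AGO2 count fell from 21 to 10 on both TPM scales. The cytoplasmic AGO1 count (12) was 7 in a fit of only the 2 groups and 7 to 16 with single libraries left out. The cytoplasmic AGO2 count (5) was 9 with DESeq2 and with length-scaled TPM, 10 on both TPM scales, 2 in a fit of only the 2 groups and 3 to 6 with libraries left out. Between AGO1/2/3 and AGO1/2, the nuclear count of 1 was 6 with DESeq2, 2 with RLE size factors, 0 with length-scaled TPM, 8 on log2(TPM + 1) and 0 to 9 with libraries left out, and the cytoplasmic count of 7 was 16 with DESeq2 and on log2(TPM + 1) and 0 to 15 with libraries left out. With the replicate block the interaction count rose from 20 to 31 and the nuclear against cytoplasmic count in wild type from 26 to 29. By reads in place of TPM, the PKM upstream-exon share differed from wild type by −0.48 and −0.45 percentage points in AGO1 and AGO2 nuclei (exact permutation p = 0.2 and 0.5), by −1.34 and −1.30 in nuclei of the multiple knockouts and by 0.033 and 0.15 in the AGO1 and AGO2 cytoplasm and −0.45 and −0.53 in the multiple knockouts. Directions that turned did so on the TPM scales, where the log2(TPM + 1) and log2(TPM + 0.1) values were, in nuclei, −0.24 and −0.24 for HIF1A, −0.069 and −0.070 for SLC16A1 and −0.013 and −0.018 for BNIP3 in AGO1, −0.037 and −0.039 for KDM3A in AGO1/2, and −0.091 and −0.10 for KDM3A and −0.067 and −0.069 for SLC16A1 in AGO1/2/3. In cytoplasm they were −0.036 and −0.036 for GAPDH in AGO2, −0.36 and −0.37 for HIF1A, −0.40 and −0.40 for GAPDH, −0.023 and −0.033 for PFKFB4, −0.41 and −0.41 for SLC2A1 and −0.088 and −0.093 for EGLN1 in AGO1/2, and −0.023 and −0.023 for GAPDH and −0.014 and −0.015 for EGLN1 in AGO1/2/3. The wild-type nuclear against cytoplasmic difference on log2(TPM + 1) turned to 0.17 for PFKP, 0.19 for PKM, 0.15 for CA12, 0.016 for ENO1, 0.15 for HIF1A, 0.069 for EPAS1, 0.020 for SLC2A1, 0.33 for SLC16A1, 0.14 for HK1 and 0.026 for PFKFB3. With single libraries left out, NDRG1 ranged from −0.47 to 0.63 in AGO1 nuclei, from −0.75 to 0.35 in AGO2 nuclei and from −0.58 to 0.52 in AGO1 cytoplasm, the highest values being those without wild-type passage 29. The cause of these changes was not tested.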

Other observations

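Genes chosen here after their values were seen completed the pathway. PGK1, the phosphoglycerate kinase, held 318 ± 9.92 CPM (SD, n = 3) in wild-type nuclei and rose in all 4 knockout lines, by 0.34 in AGO1, 0.41 in AGO2, 0.66 in AGO1/2 and 0.64 in AGO1/2/3, while in cytoplasm it fell from 341 ± 15.6 to 225 ± 18.3 CPM in AGO1/2 knockout cells (−0.60, edgeR adjusted p = 1.6e-05). ARNT, the beta partner of the hypoxia-inducible factors, rose in nuclei of the multiple knockouts, AGO1/2 and AGO1/2/3 (0.40 and 0.39, edgeR adjusted p = 4.0e-05 and 6.3e-05). VHL, part of the ligase that destroys the alpha subunits, fell there (−0.34 and −0.28, edgeR adjusted p = 9.6e-04 and 0.0044). DDIT4, a stress-induced inhibitor of growth signalling, was not called in any line, and its wild-type nuclei spread widely (65.2 ± 86.6 CPM).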
